A study of Mus musculus with 8 samples.

Results

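Acetylcholine is made, stored, taken apart and sensed by the products of a small number of genes, and 10 of them were read in the ventral tegmental area (VTA) of DBA2/J mice after early life social stress (SS). The genes were chosen by function: choline acetyltransferase (Chat), the vesicular acetylcholine transporter (Slc18a3) and the high-affinity choline transporter (Slc5a7), the cholinesterases Ache and Bche, and the muscarinic receptors Chrm1 to Chrm5. These are 10 of the 54735 genes listed in the count table, and all 10 were among the 16538 genes that passed a filter on low counts. RNA came from punches of the VTA of 4 SS and 4 unhandled control (CTR) mice, labelled male and of age P21, with 1 library per mouse. SS pups had spent 30 min per day from postnatal day 14 to 21 in the cage of a gonadectomized adult CD1 male, and CTR litters were left undisturbed with their mothers. The methods place the dissection a day after the labelled age, and since a litter could give more than a single mouse, the p-values measure the spread between mice that may include littermates. The libraries carry the numbers 1, 2, 3 and 5 for CTR and 2, 3, 4 and 5 for SS, and values are listed in that order. Totals were 20036086, 25399538, 23512478 and 39569142 counts for CTR and 41509698, 47319997, 26024301 and 25248618 counts for SS.

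Acetylcholine reaches the VTA mainly from neurons of the pedunculopontine and laterodorsal tegmental nuclei, whose cell bodies lie behind it, so that transcripts needed to make the transmitter sit largely outside the axons' target. In the target, cholinesterases split the transmitter, and muscarinic receptors signal either through Gq and phospholipase C (M1, M3 and M5) or through Gi/o and lower cyclic AMP (M2 and M4). M5 is the muscarinic receptor best known from midbrain dopamine neurons, and dopamine neurons also hold acetylcholinesterase.

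A pair of libraries went against their label. Xist, which is made from the inactive X chromosome of females, had 14997 counts in CTR-5 and 6551 in SS-5, and at most 3 counts in any other library. The genes Ddx3y, Eif2s3y, Kdm5d and Uty of the Y chromosome summed to 3 counts in CTR-5 and 0 in SS-5, compared with 2293 to 7892 in the other libraries. Values without CTR-5 and SS-5 are given beside each of the 10 genes. CTR-1 and CTR-2 also held fewer rare transcripts: among 1991 genes averaging 1 to 3 CPM, CTR-1 lacked a count for 434 and CTR-2 for 355, compared with 94 in CTR-3, 63 in SS-4 and 1 to 7 in the rest. CPM scales a count to the size of its library after TMM normalization (counts per M).

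None of the 10 genes passed an adjusted p of 0.05 between SS and CTR in edgeR's quasi-likelihood test (0 of 10, against 14 of all 16538 genes or 0.0847%), and the adjusted p of the 10 lay between 0.684 and 0.946. DESeq2 and limma voom also called 0 of them. At an unadjusted p under 0.05 edgeR gave 1 of the 10, Chrm3, against 6.55% of all genes. Chrm3 was also the single member whose 4 SS values and 4 CTR values did not overlap, where 4.67% of all genes (773) showed no overlap. The log2 fold change of SS relative to CTR was above 0 in 8 of the 10 genes and below 0 in Chat and Chrm1, with a median of 0.25, compared with 0.0037 over all tested genes. Without CTR-1 and CTR-2, Bche (-0.17) and Chrm4 (-0.18) were below 0 as well. Counts of 1 in 10 are close to these shares of all genes. In tissue punches, fewer cells of a type and less RNA per cell cannot be told apart.

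**Figure D1:**
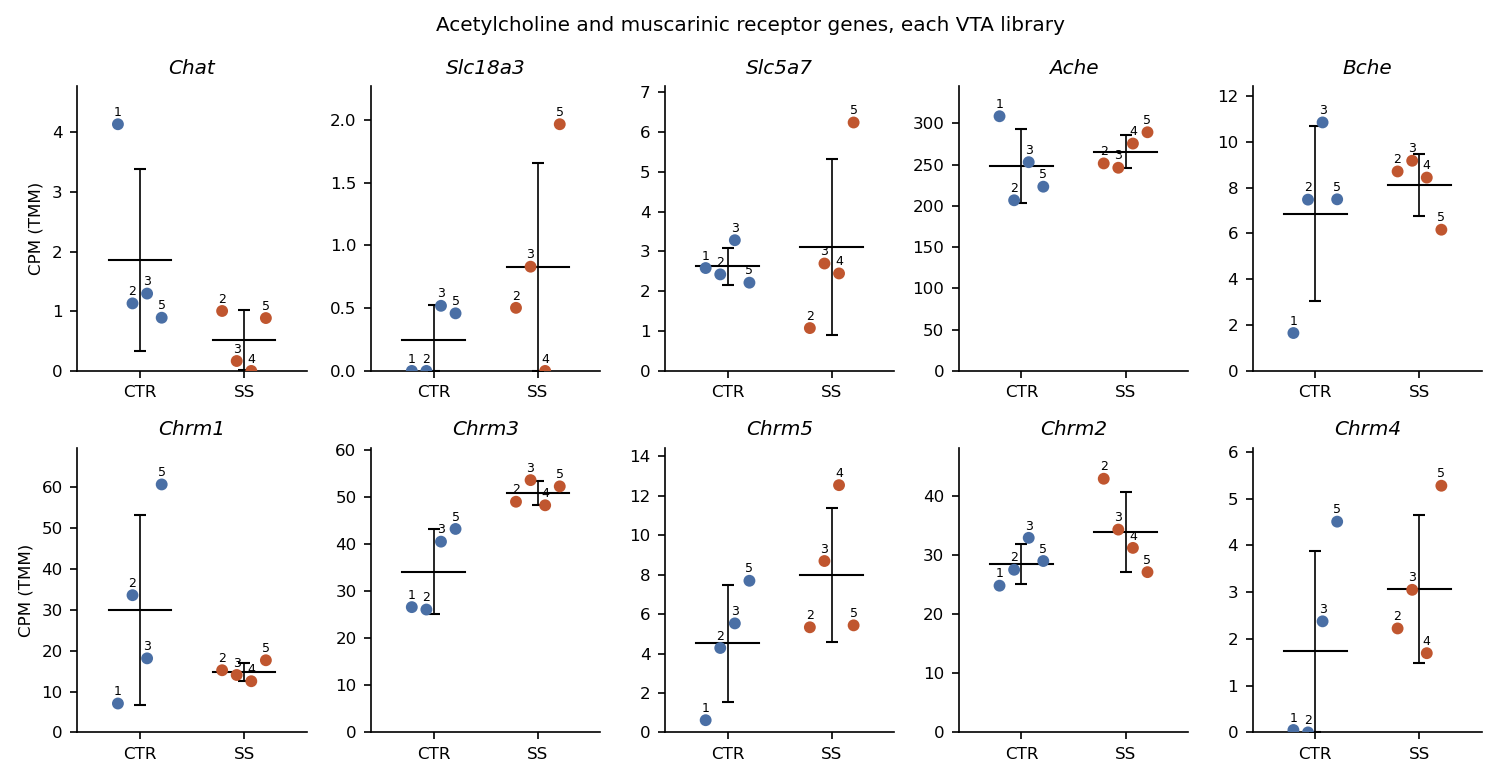
CPM of each gene in the 4 CTR (blue) and 4 SS (orange) libraries, numbered as in the labels, on linear axes that start at 0; lines give group means and bars the SD, stopped at 0. Chrm3 is the panel in which all SS points (48.2 to 53.6 CPM) lie above all CTR points (26.1 to 43.2 CPM).

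The transcripts for making acetylcholine were rare in these punches. Chat, the enzyme that joins choline to acetyl-CoA, was at 4.13, 1.13, 1.30 and 0.891 CPM in the CTR libraries and at 1.004, 0.166, 0 and 0.886 CPM in the SS libraries. These values rest on 80, 28, 30 and 35 counts in CTR and 42, 8, 0 and 23 counts in SS, and the 0 of SS-4 allows up to 0.113 CPM (3 counts, counting error only). CTR-1 was high, SS-3 and SS-4 were low, and the groups overlapped because SS-2 lay above CTR-5. In edgeR the log2 fold change was -1.84 (SE 1.15, 95% interval -4.35 to 0.66, adjusted p = 0.782 in edgeR), and an exact permutation test of the 4 and 4 values gave p = 0.0571. Leaving out single libraries gave values from -2.40 (without SS-2) to -1.10 (without CTR-1), and it was -2.46 without CTR-5 and SS-5, -1.08 without CTR-1 and CTR-2 and -0.96 with the replicate number as a block over the 6 libraries that share numbers. Chat and Chrm3 were the 2 of 10 members without overlap when CTR-5 and SS-5 were left out, where 20.1% of all genes had none.

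Chat (chr14:32408203-32465989, minus strand, GRCm38) is the only member of the synthesis genes whose promoter window holds any of the searched words. The stretch that precedes the annotated gene is shown because Chat is the synthesizing enzyme and the member with the lowest log2 fold change; the capitals mark the E-box CACGTG. It covers chr14:32465990-32466159 on the minus strand of GRCm38.p6, 170 bases from RefSeq that end 81 bases before the RefSeq start.
Chat: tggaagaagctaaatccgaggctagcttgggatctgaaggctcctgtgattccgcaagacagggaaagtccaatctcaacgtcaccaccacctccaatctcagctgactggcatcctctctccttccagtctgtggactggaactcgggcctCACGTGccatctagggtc

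Slc18a3 lies inside the Chat gene on the same strand (chr14:32462438-32464850) and shares 0 exonic bases with it. The transporter, which fills synaptic vesicles with acetylcholine, was at 0, 0, 0.518 and 0.458 CPM in the CTR libraries and at 0.502, 0.830, 0 and 1.96 CPM in the SS libraries. It was counted 0, 0, 12 and 18 times in CTR, as against 21, 40, 0 and 51 times in SS. Counts of 0 allow up to 0.155 CPM in CTR-1, 0.121 CPM in CTR-2 and 0.113 CPM in SS-4. The pair of genes did not follow each other by library: CTR-1 had the most Chat and no Slc18a3 count, SS-5 had the most Slc18a3, and SS-4 had no count of either. Slc18a3 had a log2 fold change of 1.71 (SE 1.53, 95% interval -1.64 to 5.06, adjusted p = 0.856 in edgeR), an interval too wide to give its direction. The value was 0.85 without SS-5, 2.32 without CTR-3, 1.35 without CTR-5 and SS-5 and 0.75 without CTR-1 and CTR-2.

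Slc5a7, which returns choline to cholinergic terminals, was at 2.58, 2.42, 3.28 and 2.22 CPM in the CTR libraries and at 1.08, 2.70, 2.45 and 6.24 CPM in the SS libraries. The CTR libraries were close together, and the SS libraries reached both below and above them, with SS-2 lowest and SS-5 highest. SS relative to CTR, its log2 fold change was 0.24 (SE 0.55, 95% interval -0.95 to 1.44, adjusted p = 0.946 in edgeR). The sign depended on SS-5 and on the test: the value was -0.34 without SS-5, -0.41 without CTR-5 and SS-5, and -0.14 in limma voom on all 8 libraries, and it was 0.53 without SS-2 and 0.0098 with the replicate block. SS-5 held the most Slc18a3 and Slc5a7 of all libraries, with 51 and 162 counts.

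Markers of cholinergic cells were examined next to these genes. Of the 9 markers listed for basal forebrain, striatal and tegmental cholinergic neurons, 6 passed the filter and Lhx8, Gbx1 and Gbx2 did not, with Lhx8 counted in CTR-5 alone (9 counts). The most abundant was Nos1, which also marks other neurons, with a log2 fold change of 0.13 (adjusted p = 0.903 in edgeR; -0.0204 without CTR-1 and 0.24 without CTR-3). Slc10a4, a vesicle protein of cholinergic and monoamine neurons, was the gene called in this list (adjusted p = 0.000893 in edgeR, log2 fold change -4.10 with SE 0.39) and 4 of 4 SS libraries below every CTR library. The summed level of the list was 208, 213, 263 and 265 CPM in the CTR libraries and 180, 177, 191 and 253 CPM in the SS libraries. Without Slc10a4 the sums were 121, 181, 227 and 186 CPM in CTR and 176, 175, 187 and 249 CPM in SS. Of the 10 oculomotor and motor neuron markers 4 passed the filter and 0 were called, and Isl2, Mnx1 and Tbx20 had 0 counts in all 8 libraries. Their summed level was 6.41, 16.6, 11.1 and 8.23 CPM in CTR and 6.46, 9.94, 11.98 and 20.1 CPM in SS, with Calca the most abundant. SS-5 had the highest sum of SS, as it was highest for Slc5a7 and Slc18a3 but not for Chat. Prph (10.2 CPM) and Calca (7.43 CPM) were highest of SS in SS-5. Isl1 was highest of SS in SS-4 (1.88 CPM, against 1.19 CPM in SS-5), and Nkx6-1 was lowest of SS in SS-5 (1.19 CPM). The part of these cells in the levels of Chat, Slc18a3 and Slc5a7 was not tested.

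The genes that supply acetyl-CoA and choline were read as a list. Of 20 such genes 16 passed the filter, 0 were called and 0 had an unadjusted p under 0.05 in edgeR, with 10 above and 6 below 0 and a median log2 fold change of 0.063. Acly, the ATP citrate lyase that makes cytosolic acetyl-CoA, was the most abundant of them. It was at 207, 257, 253 and 249 CPM in the CTR libraries and 247, 253, 262 and 256 CPM in the SS libraries, a log2 fold change of 0.077 (95% interval -0.12 to 0.27, adjusted p = 0.893 in edgeR) and of 0.0104 without CTR-1.

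Breakdown was represented by more RNA per exonic length than synthesis, mainly through Ache. Ache, the synaptic acetylcholinesterase (chr5:137287519-137294466, plus strand), was at 309, 207, 253 and 223 CPM in the CTR libraries and at 251, 246, 275 and 289 CPM in the SS libraries. The SS values fell inside the CTR range, whose highest library was CTR-1. Ache had a log2 fold change of 0.10 (SE 0.12, 95% interval -0.17 to 0.37, adjusted p = 0.899 in edgeR), the narrowest interval of the 10 genes. It ranged from 0.023 without CTR-2 to 0.22 without CTR-1 (adjusted p 0.978 and 0.61) when single libraries were left out, and was 0.0095 without CTR-5 and SS-5, 0.21 with the replicate block and 0.16 on library totals. The interval holds differences of up to 1.29-fold higher and down to 0.890-fold of CTR. Part of the reads could belong to the antisense gene Gm42456, which shares 98 exonic bases with Ache and had 213 counts over all libraries, since the sources used here do not state whether strand was used in counting.

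Acetylcholinesterase is held in place by anchor proteins, of which 1 of 2 passed the filter. Prima1, the membrane anchor of the enzyme in brain, was at 13.8, 13.7, 14.7 and 13.8 CPM in the CTR libraries and at 8.78, 7.34, 12.5 and 13.1 CPM in the SS libraries. All SS values were below all CTR values, by little in SS-4 and SS-5 and by more in SS-2 and SS-3. Prima1 had a log2 fold change of -0.43 (SE 0.22, 95% interval -0.91 to 0.05, adjusted p = 0.755 in edgeR). Leaving out single libraries gave values from -0.56 (without SS-5) to -0.29 (without SS-3). The exact permutation test gave p = 0.0286, the smallest that 70 assignments allow and the value of any gene without overlap. Over all genes, 4.67% showed no overlap. The gene that did not pass was Colq, the collagen tail of the muscle form.

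Bche, the cholinesterase of glia and plasma, was at 1.65, 7.47, 10.8 and 7.49 CPM in the CTR libraries and at 8.70, 9.17, 8.44 and 6.16 CPM in the SS libraries. CTR-1, with 32 counts, was low, CTR-3 was above every SS library, and CTR-2 and CTR-5 lay between SS-5 and the other SS libraries. For Bche the log2 fold change was 0.24 (SE 0.43, 95% interval -0.71 to 1.19, adjusted p = 0.932 in edgeR). It was -0.079 without CTR-1, 0.54 without CTR-3, 0.39 without CTR-5 and SS-5, -0.17 without CTR-1 and CTR-2, 0.40 in limma voom and -0.099 with the replicate block.

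Of the receptors coupled to Gq, Chrm3 stood out by the separation of its groups. Chrm3 (chr13:9875486-10360847, minus strand, 6253 exonic bases) was at 26.6, 26.1, 40.5 and 43.2 CPM in the CTR libraries and at 49.0, 53.6, 48.2 and 52.3 CPM in the SS libraries, from 515, 646, 938 and 1697 counts in CTR and 2049, 2583, 1281 and 1357 counts in SS. Every SS library was above every CTR library; the SS libraries were close together, and the CTR libraries formed a lower pair, CTR-1 and CTR-2, and a higher pair, CTR-3 and CTR-5. The mean was 34.1 ± 9.03 CPM over the CTR libraries and 50.8 ± 2.56 CPM over the SS libraries (SD, n = 4 each). The log2 fold change was 0.57 (SE 0.18, 95% interval 0.19 to 0.95), a 1.49-fold level, with an adjusted p of 0.684 in edgeR's test and 0.182 in DESeq2. The exact permutation test gave p = 0.0286, the smallest possible. Any gene without overlap gets this value, so it restates the separation of the groups. Without CTR-5 and SS-5 the log2 fold change was 0.69. Without CTR-1 and CTR-2, the libraries with fewer rare transcripts, it was 0.28, with the remaining CTR values still below every SS value. The difference kept its sign in all 22 alternative settings and passed the threshold in none (lowest adjusted p 0.151, without CTR-5).

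The stretch before the annotated start of Chrm3 is shown because it belongs to the member whose groups did not overlap; none of the searched words occurs in its window, so it carries no capitals. It covers chr13:10360848-10361053 on the minus strand of GRCm38.p6, 206 bases from RefSeq that end 45 bases before the RefSeq start.
Chrm3: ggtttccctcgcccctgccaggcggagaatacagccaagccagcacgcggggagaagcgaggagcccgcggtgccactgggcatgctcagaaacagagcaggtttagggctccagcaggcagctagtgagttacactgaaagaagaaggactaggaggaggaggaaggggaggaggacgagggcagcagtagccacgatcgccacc

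The words AAAGGTCA (NBRE), TAATCC (Pitx), TGTTTAC (Fox) and CACGTG (E-box) were looked for on both strands in the 300 bases around each RefSeq start, which 9 of the 10 members have in the table. CACGTG, its own reverse complement, occurred in the windows of Chat and Ache and in 7.24% of all 27025 windows. TAATCC occurred in the windows of Chrm2 and Chrm4 and in 7.16% of all. AAAGGTCA and TGTTTAC occurred in none of the 9 and in 1.46% and 3.55% of all windows. The matches describe letters in these windows and nothing about binding.

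Chrm1, the main Gq-coupled muscarinic receptor of cortex and hippocampus (chr19:8663789-8683587, plus strand), was at 7.08, 33.6, 18.1 and 60.7 CPM in the CTR libraries and at 15.2, 14.1, 12.5 and 17.7 CPM in the SS libraries. The SS libraries were close together and lay inside a CTR range whose lowest library was CTR-1 and whose highest was CTR-5. For Chrm1 the log2 fold change was -1.01 (SE 0.47, 95% interval -2.04 to 0.01, adjusted p = 0.755 in edgeR), and the exact permutation test gave p = 0.371. It was -0.40 without CTR-5 and -0.50 without CTR-5 and SS-5, but -1.34 without CTR-1 and -1.41 without CTR-1 and CTR-2 (adjusted p 0.277 and 0.329).

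Chrm1 was read beside 8 markers of cortical and hippocampal excitatory neurons, which followed it to different degrees. Slc17a7, the vesicular glutamate transporter of those cells, was at 13.9, 243, 56.9 and 403 CPM in the CTR libraries and at 37.9, 37.0, 21.5 and 64.5 CPM in the SS libraries. The order of the 4 CTR libraries was the same for Chrm1 and Slc17a7, and SS-5 was the highest and SS-4 the lowest SS library of both. Slc17a7 was among the 3 genes most like Chrm1 of the 14701 compared (Pearson r = 0.98, Spearman rho = 0.976 over 8 libraries, r = 0.991 without CTR-5 and CTR-1), after Baiap2 (r = 0.987) and Ogfrl1 (r = 0.982). Neurod6 was at 8.11, 13.9, 13.1 and 75.6 CPM in CTR and at 8.01, 8.09, 4.26 and 16.5 CPM in SS. Over the 8 libraries the r with Chrm1 was 0.97 for Camk2a and 0.834 for Neurod6, and 0.222 for Cux2 and 0.133 for Emx1; without CTR-5 these were 0.946, 0.564, 0.755 and -0.369. All 8 markers of the list passed the filter, 6 below and 2 above 0, with 0 called and a median log2 fold change of -0.67. Without CTR-5 the log2 fold changes of Slc17a7, Neurod6 and Camk2a were -1.38, -0.35 and -0.23, compared with -2.16, -1.60 and -0.66 with all libraries. Without CTR-1 they were -2.54, -1.90 and -0.90. The most abundant was Camk2a, and the summed list was at 337, 920, 551 and 1546 CPM in the CTR libraries and at 490, 479, 461 and 506 CPM in the SS libraries. The part of these cells in the value of Chrm1 was not tested.

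**Figure D2:**
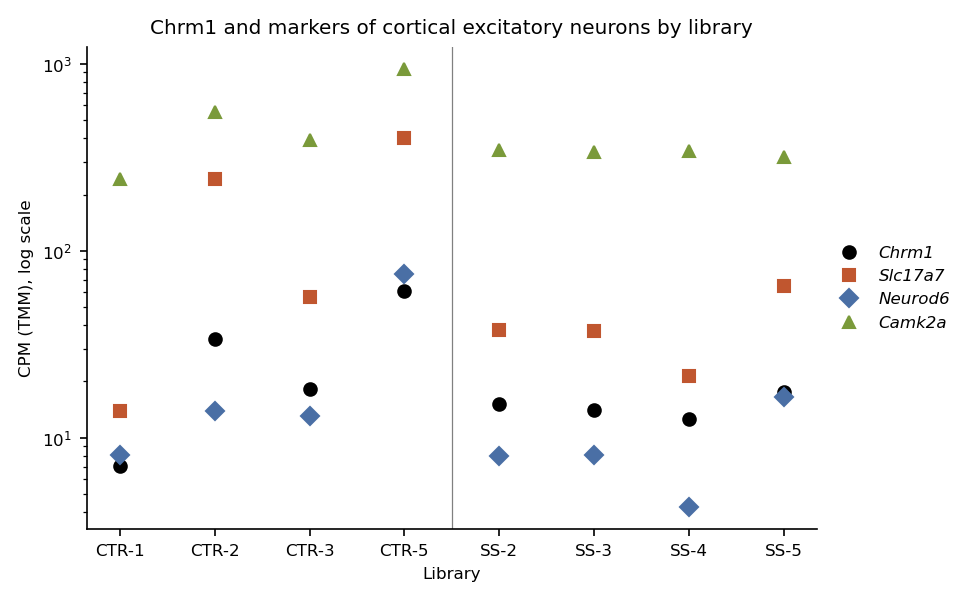
CPM on a log axis of Chrm1 and of Slc17a7, Neurod6 and Camk2a in each library, CTR left and SS right of the vertical line. In CTR the points of Chrm1 run from 7.08 CPM in CTR-1 to 60.7 CPM in CTR-5, and those of Slc17a7 from 13.9 to 403 CPM in the same libraries.

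Striatal projection neurons, which also express Chrm1 and Chrm4, were read in the same way. Of their 8 markers 7 were lower and 1 higher in SS, 0 were called, and the summed level was 218, 279, 157 and 200 CPM in the CTR libraries and 160, 175, 166 and 158 CPM in the SS libraries. The most abundant, Penk, had a log2 fold change of -0.50 (adjusted p = 0.755 in edgeR), which was -0.27 without CTR-2 and 0.079 without CTR-1 and CTR-2.

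Chrm5 is a single-exon gene model of 1599 bases (chr2:112479171-112480769, minus strand). It was at 0.620, 4.28, 5.53 and 7.69 CPM in the CTR libraries and at 5.33, 8.69, 12.5 and 5.43 CPM in the SS libraries. CTR-1, with 12 counts, was low and SS-4, with 333 counts, was high, and the other libraries of both groups overlapped. Its log2 fold change was 0.81 (SE 0.56, 95% interval -0.42 to 2.04, adjusted p = 0.803 in edgeR). It was 0.45 without CTR-1, 0.51 without SS-4, 1.34 without CTR-5 and SS-5 and 0.27 without CTR-1 and CTR-2. With the replicate block it was 0.16, and over the same 6 libraries without the block it was 0.15.

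Ache and Chrm5, both known from dopamine neurons, can be set beside the markers of those cells. Of the 13 dopamine neuron markers, 12 were lower in SS and 6 were called (Th, Slc6a3, Ddc, Slc18a2, En1 and Aldh1a1), with a median log2 fold change of -1.31. With each library left out 3 to 7 of the 13 were called, fewest without SS-4, and the calls of Th, Slc6a3 and Ddc held throughout. The calls of Slc18a2, En1 and Aldh1a1 did not, while their log2 fold changes stayed at -3.25 to -2.40, -4.81 to -3.97 and -1.41 to -1.04. Th was at 472, 161, 169 and 322 CPM in the CTR libraries and at 15.7, 15.8, 14.1 and 25.5 CPM in the SS libraries. Slc6a3 was at 598, 336, 243 and 613 CPM in the CTR libraries and at 3.11, 2.72, 7.46 and 11.5 CPM in the SS libraries. The summed list, with Ret its most abundant gene, was at 2587, 1572, 1255 and 2385 CPM in CTR and at 481, 432, 452 and 589 CPM in SS. The upper end of the interval of Th was -3.21, and the lower ends were -0.17 for Ache and -0.42 for Chrm5. CTR-1 had the most Th and the least Chrm5 of the 8 libraries. That Chrm5 value rested on 12 counts, in the library that lacked a count for 434 of 1991 genes averaging 1 to 3 CPM. The part of dopamine neurons in the levels of Ache and Chrm5 was not tested. Among nicotinic receptor genes, Chrna6 and Chrnb3 had log2 fold changes of -3.04 (adjusted p = 0.0195 in edgeR) and -4.06 (adjusted p = 0.00452 in edgeR), and Chrna4 one of -0.90 (adjusted p = 0.0924 in edgeR). Chrna6 did not pass the threshold without SS-2, SS-3 or SS-4 (adjusted p 0.117, 0.108 and 0.146), with log2 fold changes of -2.91, -2.88 and -2.86, and Chrna4 passed it without CTR-2 (0.0293) and without CTR-1 and CTR-2 (0.039). Chrna3 had a log2 fold change of -0.43 (adjusted p = 0.913 in edgeR; -1.16 without SS-5 and -0.11 without SS-3) and Chrnb4 one of 1.65 (adjusted p = 0.801 in edgeR; 0.83 without SS-5).

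**Figure D3:**
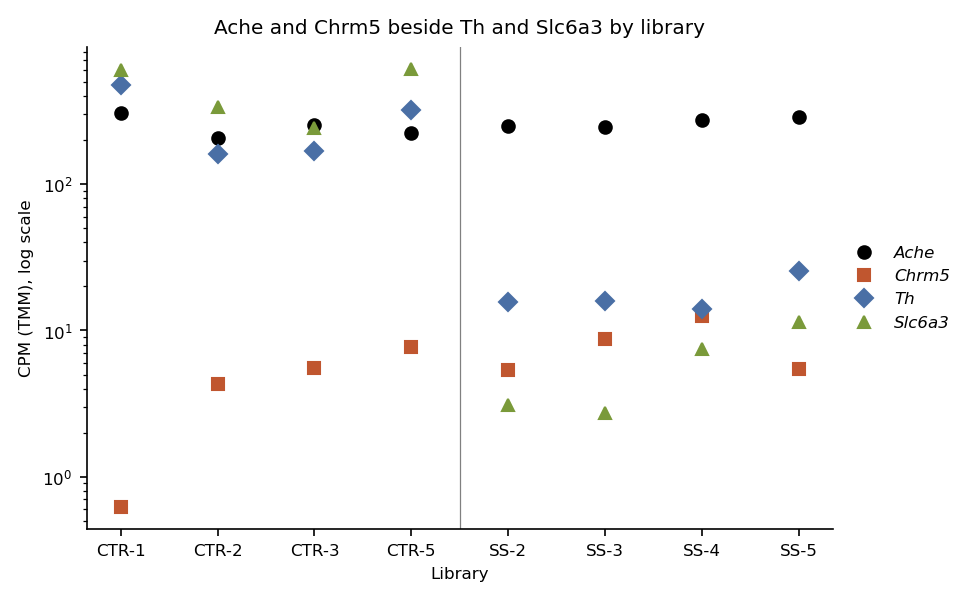
CPM on a log axis of Ache, Chrm5, Th and Slc6a3 in each library, CTR left and SS right of the vertical line. Ache lies between 207 and 309 CPM in all libraries, while Th is at 161 to 472 CPM in CTR and at 14.1 to 25.5 CPM in SS.

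The receptors coupled to Gi/o are Chrm2 and Chrm4. Chrm2, the autoreceptor of many cholinergic neurons (chr6:36388084-36528414, plus strand), was at 24.9, 27.6, 33.0 and 29.0 CPM in the CTR libraries and at 43.0, 34.4, 31.3 and 27.2 CPM in the SS libraries. SS-2 was the highest library, and SS-4 and SS-5 lay inside the CTR range. For Chrm2 the log2 fold change was 0.25 (SE 0.16, 95% interval -0.11 to 0.61, adjusted p = 0.796 in edgeR). It was 0.12 without SS-2, 0.35 without CTR-5 and SS-5 and 0.14 without CTR-1 and CTR-2. An antisense gene, 9330158H04Rik, shares 142 exonic bases with Chrm2 and had 413 counts over all libraries.

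Chrm4, which opposes D1 receptor signalling in striatal neurons, is a single-exon model of 1440 bases (chr2:91927249-91928688, plus strand) on the same chromosome as Chrm5. It had 1, 0, 55 and 177 counts in the CTR libraries and 93, 147, 45 and 137 counts in the SS libraries. As CPM these were 0.0517, 0, 2.38 and 4.51 in CTR, as against 2.22, 3.05, 1.69 and 5.28 in SS, and the 0 of CTR-2 allows up to 0.121 CPM. CTR-1 and CTR-2 were near 0, and CTR-3 and CTR-5 fell among the SS libraries. Its log2 fold change was 0.80 (SE 1.14, 95% interval -1.68 to 3.29, adjusted p = 0.912 in edgeR). It ranged from 0.39 without CTR-2 to 1.91 without CTR-5 when single libraries were left out, and was -0.18 without CTR-1 and CTR-2, 1.52 without CTR-5 and SS-5, 2.50 in limma voom on all 8 libraries, 0.46 with the bias-adjusted estimate and 1.48 with the replicate block.

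**Figure D4:**
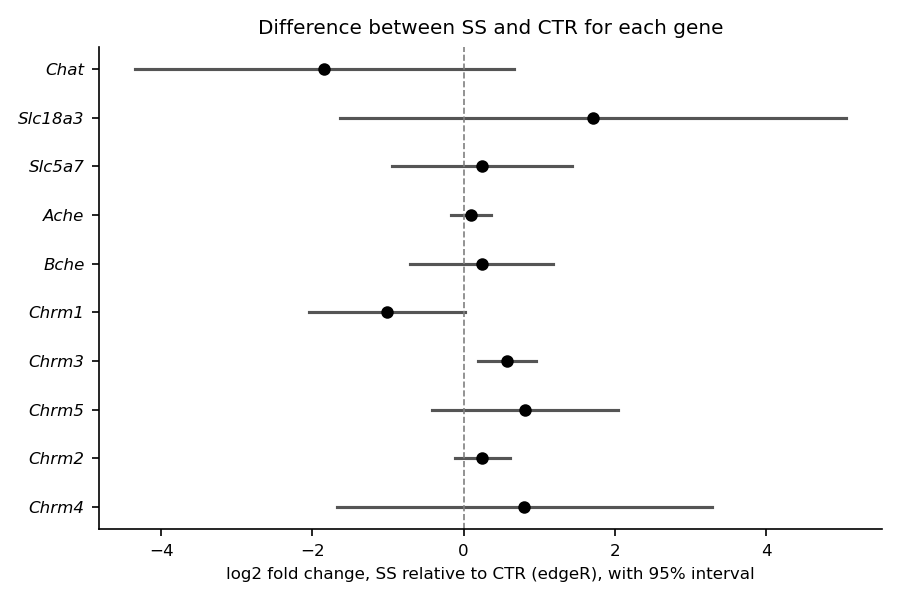
The log2 fold change of SS relative to CTR in edgeR for each gene (points) with its 95% interval (lines), on a linear axis with 0 dashed. The interval of Chrm3 (0.19 to 0.95) is the one that does not reach 0, and those of Slc18a3, Chat and Chrm4 are the widest.

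Downstream of the receptors, the 34 listed genes of muscarinic signalling all passed the filter and 0 were called in edgeR, with 22 below and 12 above 0 and a median log2 fold change of -0.044. Gnao1, the Go alpha subunit and the most abundant, had a log2 fold change of -0.039 (95% interval -0.20 to 0.12, adjusted p = 0.936 in edgeR). Its value was -0.0067 without CTR-3 and -0.075 without CTR-1. Prkca, a protein kinase C activated below Gq, was at 71.2, 96.2, 86.7 and 186 CPM in the CTR libraries and at 61.7, 58.8, 60.4 and 62.5 CPM in the SS libraries. All its SS values were below all CTR values, with CTR-5 high as for Chrm1, at a log2 fold change of -0.86 (95% interval -1.39 to -0.33, adjusted p = 0.569 in edgeR) that was -0.48 without CTR-5 and -0.49 without CTR-5 and SS-5. Arrb2, the beta-arrestin that binds phosphorylated receptors, was at 60.5, 42.5, 62.3 and 54.8 CPM in CTR and at 66.3, 70.6, 70.3 and 70.6 CPM in SS. Its groups did not overlap either, at a log2 fold change of 0.34 (95% interval 0.05 to 0.62, adjusted p = 0.755 in edgeR) that was 0.23 without CTR-2 and 0.40 without CTR-3. Over all genes, 4.67% showed no overlap. Of the 34 listed genes, 2 lower and 1 higher had an unadjusted p under 0.05 in edgeR, where 6.55% of all genes did.

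Levels were compared between the genes as CPM per kb of exonic length in GENCODE M21. In CTR the order of the mean levels was Ache (53.6), Chrm3 (5.46), Chrm2 (4.72), Chrm1 (4.61), Chrm5 (2.83), Chrm4 (1.20), Bche (1.02), Slc5a7 (0.465), Chat (0.396) and Slc18a3 (0.101 CPM per kb). Ache stood apart, its lowest CTR library at 44.7 and the highest value of any other member in CTR at 9.36 CPM per kb, that of Chrm1 in CTR-5. The CTR ranges of Chrm3 (4.17 to 6.91), Chrm2 (4.11 to 5.45), Chrm1 (1.09 to 9.36) and Chrm5 (0.388 to 4.81) overlapped. Chrm3 was above Chrm5 in each CTR library, and every other pair of these receptors changed its order between CTR libraries. The CTR ranges of Slc5a7 (0.393 to 0.582) and Chat (0.190 to 0.879) overlapped as well. In M21 the models of Chrm5 and Chrm4 hold coding length alone, and a longer model would lower their values per kb and their shares below. In SS, Chrm3 had the highest receptor level at 8.12 ± 0.410 CPM per kb (SD, n = 4), above Chrm2 at 5.61 ± 1.11 and Chrm5 at 5.002 ± 2.13, though Chrm5 in SS-4 (7.84) reached the range of Chrm3.

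As a share of the summed receptor levels per kb, Chrm1 took 11.1, 31.2, 14.1 and 32.3% in the CTR libraries, as against 10.6, 9.05, 8.11 and 12.04% in the SS libraries. The CTR libraries ranged widely and CTR-1 fell among the SS values. Chrm3 took 43.1, 25.2, 32.7 and 23.8% in CTR, as against 35.4, 35.8, 32.4 and 36.9% in SS, so that the separation of its levels was not seen in its share. Chrm5 took 3.93 to 17.4% in CTR and 15.01 to 32.9% in SS.

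**Figure D5:**
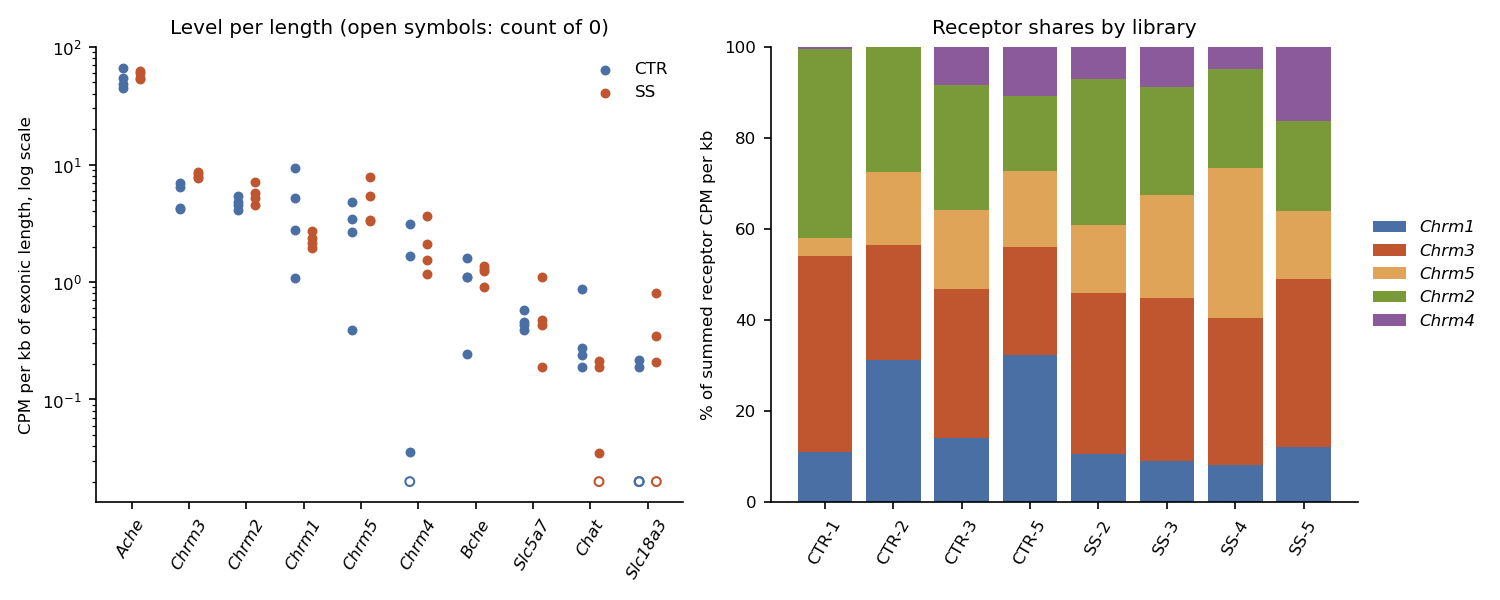
Left, CPM per kb of exonic length of each gene in every library on a log axis, in the order of the CTR means, with open symbols at the base for a count of 0; right, the share of each receptor in the summed receptor CPM per kb of each library, as stacked bars from 0. Ache lies above all other genes in every library, and the share of Chrm1 is 8.11 to 12.04% in SS.

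The genes whose log2 CPM was most like that of a member over the 8 libraries differed from member to member. For Chrm3 they were Mfap2 (Pearson r = 0.988), Nek8 (r = 0.987) and Col1a2 (r = 0.984), which were 0.957, 0.961 and 0.887 without CTR-2 and CTR-1, the libraries farthest from the median of Chrm3. For Ache they were Plppr3 (r = 0.984), Dnajb2 (r = 0.976) and BC037034 (r = 0.972), and for Chrm2 Elac1 (r = 0.940), Nipal3 (r = 0.934) and Erich3 (r = 0.929). Bche was most like Mme (r = 0.991) and Chrm5 most like Plxnc1 (r = 0.990). Chat was most like Alox5ap (r = 0.971), Slc18a3 most like Col23a1 (r = 0.963) and Slc5a7 most like Col5a1 (r = 0.949), whose r was 0.674 without SS-5 and SS-2. No member was among the 3 genes closest to another member. These r values are the highest of 14701 genes each and describe these libraries alone.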

How the data were processed

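Gene counts from the VTA of 4 CTR and 4 SS mice were used. They were deposited by the authors as whole counts, not normalized, after trimming (Cutadapt), alignment to mm10 (STAR) and counting (htseq-count with the gene models of Ensembl 102). The strand setting is not given in the sources used here.

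Counts were analysed in R 4.3.3 with edgeR 4.0.16. Genes were kept with filterByExpr (minimum count 10, minimum total 15), scaled with TMM and compared by glmQLFit and glmQLFTest at this version's defaults, the group as the only term, with Benjamini-Hochberg adjustment over 16538 genes at 0.05. The biological coefficient of variation was 0.384. The SE is the size of the log2 fold change divided by the square root of the test's F. Exact two-sided permutation tests used log2 CPM (prior count 2) over 70 assignments, with a smallest p of 0.029. The fits were tested on simulated data.

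The members, the lists and the rule for named genes were chosen with earlier results of these data known. The rule named the 10 members, of each list its most abundant gene, its genes past the threshold and up to 3 more with the smallest unadjusted p under 0.05, the 3 genes most similar to each member among those with a mean of at least 1 CPM, the sex-linked genes, Chrna4, Chrna6 and Chrnb3; some of these are not reported here. Other genes were named after their values were seen (Lhx8, Gbx1, Gbx2, Isl2, Mnx1, Tbx20 and Colq for their low counts, Cux2 and Emx1 for their r with Chrm1, Chrna3 and Chrnb4 beside the other nicotinic genes, and the genes overlapping a member). Prph, Isl1 and Nkx6-1 were also named in this way, for their values in SS-5. Of 14 marker lists, those not described had no gene past the threshold. Positions, exonic lengths and overlaps came from GENCODE M21 on GRCm38, and promoter windows from RefSeq.

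Alternatives were DESeq2 1.42.0, limma 3.58.1 voom, DESeq2 size factors, upper-quartile and total scaling, no filter, a mean count of at least 50, the bias-adjusted and robust quasi-likelihood estimates, a threshold of 0.01, the omission of each library in turn, CTR-5 and SS-5 or CTR-1 and CTR-2 left out, sex transcripts as a covariate and the replicate number as a block. A fit of the 6 libraries with shared numbers without the block was added after seeing the data. Another added fit, without CTR-1 and CTR-5, was run and is not used, since those libraries had been picked by their Chrm1 values.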

Additional observations from a re-analysis of the deposited data

Results flagged for a closer look

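For 4 CTR or 4 SS values of a gene, the distance of the most extreme value from the next was set against the whole range of the 4 values. This was done for the CPM of the 10 members and of 15 other genes given by library, and 11 of 50 groups passed Dixon's 95% limit, 4 of them among 10 groups of sex-linked genes, where CTR-5 and SS-5 were already known to differ. Of the 20 groups of members 1 passed, as many as chance gives at this limit (about 1 of 20): Chat in CTR-1, the highest of CTR, with a ratio of 0.875. Among the other genes, CTR-5 was the highest of CTR for Neurod6 (0.915), SS-5 the highest of SS for Th (0.853), CTR-3 the highest of CTR for Prima1 (0.853), CTR-1 the lowest of CTR for Acly (0.837), SS-5 the highest of SS for Pmch (0.877) and SS-2 the lowest of SS for Arrb2 (0.932). CTR-5 and SS-5 were the highest of their groups for Xist (ratio 1 in both), CTR-5 the lowest of CTR for Eif2s3y (0.845) and SS-5 the lowest of SS for Uty (0.841).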

How the results depend on the processing

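The count of members past the threshold was 0 in every setting run. Of 218 log2 fold changes of single members under the alternatives, 210 kept their direction and side of the threshold, 0 passed it and 8 changed sign. Those of Slc5a7 were -0.14 with limma voom, -0.34 without SS-5 (-0.34 to 0.53 with each library left out) and -0.41 without CTR-5 and SS-5. Those of Bche were -0.079 without CTR-1 (-0.079 to 0.54 with each library left out), -0.17 without CTR-1 and CTR-2, -0.099 with the replicate block and -0.096 over the same 6 libraries without it. That of Chrm4 was -0.18 without CTR-1 and CTR-2. The count of members without overlap was 1 on library totals and 2 without CTR-5 and SS-5, where fewer samples are compared.

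Over all genes the count was 14 in edgeR and 81 with DESeq2 (60 lower and 21 higher). It was 22 without a filter and 22 at a mean count of at least 50, 27 with the bias-adjusted estimate, 7 at an adjusted p under 0.01, 9 without CTR-5 and SS-5, and 6 to 19 with each library left out (6 without SS-4, 7 without SS-3, 8 without SS-2 and 9 without SS-5). Simulated counts of the same size were drawn with the same spread per gene in both groups. On them DESeq2 called more of the changed genes and also more of the unchanged genes than edgeR. In the data the CTR libraries differed more among themselves than the SS libraries, so this result cannot be carried over to the 81. The part of changed and unchanged genes in the 81 was not tested, nor was the cause of the differences between libraries.

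With the replicate number as a block over the 6 libraries with shared numbers, 9 genes and 0 members were called, against 7 genes for the same libraries without the block. Without the block these libraries gave log2 fold changes of -0.69 (Chat), 0.33 (Slc5a7), 0.21 (Ache), 0.15 (Chrm5) and 0.60 (Chrm4). Libraries with the same number did not deviate together (r of -0.00625, -0.00767 and 0.0603), so the numbers were not taken to pair the mice.

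Chat, Slc18a3 and Chrm4 had counts of 0 in 1 to 3 libraries each, and the cause of the zeros was not tested. A difference of the size of Chrm3's did not reach the threshold over all genes, and the wide intervals of the rarer members leave both directions possible. Exonic lengths are those of GENCODE M21 and bear on the levels per kb, their order and the receptor shares.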

Other observations

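Medial habenula and interpeduncular markers, from regions rich in cholinergic fibres, were read as a list of 8 genes, of which 7 passed the filter and 0 were called in edgeR (0 also at an unadjusted p under 0.05), 5 lower and 2 higher in SS. Their summed level was 82.1, 133, 101.9 and 71.8 CPM in the CTR libraries and 85.6, 73.9, 75.1 and 127 CPM in the SS libraries, with Tac1 the most abundant. SS-5 was the highest SS library here, as it was for Slc5a7 and Slc18a3 but not for Chat. All 9 markers of hypothalamus and mammillary region were above 0 on the log2 scale, with 0 called, a median of 0.18 and the gene Pmch at 0.207, 16.7, 1.90 and 6.65 CPM in the CTR libraries and 34.3, 32.1, 32.7 and 50.3 CPM in the SS libraries (log2 fold change 2.54, adjusted p = 0.609 in edgeR, and 3.07 with an adjusted p of 0.0233 without CTR-1 and CTR-2). With each single library left out, Pmch did not pass the threshold (adjusted p 0.169 to 0.9994 in edgeR, log2 fold change 2.15 to 3.59). Nor did it pass without CTR-5 and SS-5 (adjusted p = 0.4225 in edgeR).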
